A study of Rattus norvegicus with 70 samples.

Results

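Water channels and sodium transporters were followed in 6 tissues of male Wistar-Kyoto rats, an inbred strain, after inhalation of ozone, an oxidant gas. The genes were the aquaporins Aqp1, Aqp3, Aqp4 and Aqp5, the epithelial sodium channel subunits Scnn1a, Scnn1b and Scnn1g, the sodium pump subunit Atp1b1 and the sodium-chloride cotransporter Slc12a3, which makes 9 of the 19441 genes with a value in every tissue. They were chosen by their ozone against air values in these same libraries and then listed by symbol, and all 9 were found in all 6 tables. For that reason the fold changes, calls and adjusted p-values below describe where each gene lies in the fit of its whole tissue and are not independent evidence.

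The ozone groups came from rats that breathed 0.8 ppm ozone for 4 h, and the air groups from rats that breathed air. There were 68 libraries: 6 ozone and 6 air for each of lung, liver and hypothalamus, 6 and 5 for the adrenal gland, 5 and 5 for adipose tissue and 5 and 6 for skeletal muscle. The age of the rats, the interval between exposure and dissection and the fat depot or muscle sampled were not given in the sources used here. Libraries carry a number, up to 12 in the air groups and from 13 in the ozone groups, and any order of handling that the numbers follow cannot be told apart from exposure.

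Aquaporins are membrane channels that let water, and in the case of Aqp3 also glycerol, cross the cell membrane along a gradient. In the lung Aqp1 is known from capillary endothelium, Aqp3 from basal cells of the airway, Aqp4 from airway epithelium and Aqp5 from alveolar type 1 cells and submucosal glands. The epithelial sodium channel lets sodium enter the apical side of alveolar and airway cells, and the sodium pump, an alpha and a beta subunit, drives it out on the basolateral side, which is how fluid is cleared from the airspace. Slc12a3 is known as the thiazide-sensitive cotransporter of the distal convoluted tubule of the kidney. Corticosteroids are known regulators of several of these genes.

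The start regions of 3 of the genes are shown because they are the ones of the listed genes that rose after ozone in some tissue for which RefSeq gave a sequence (GRCr8 build; 7 of the 9 genes had an entry, and Atp1b1 and Scnn1a had none). Each is the 250 bases before the annotated transcript start, written 5′ to 3′ on the gene's own strand. Aqp1 lies at chr4:85812534-85812783 (plus strand), Aqp3 at chr5:61040684-61040933 (minus strand) and Slc12a3 at chr19:10675051-10675300 (minus strand), the last within the annotated span of its own gene. Capitals mark TATAAA, the core of a TATA box, and GGGCGG, the core of a GC box, found on either strand.
Aqp1: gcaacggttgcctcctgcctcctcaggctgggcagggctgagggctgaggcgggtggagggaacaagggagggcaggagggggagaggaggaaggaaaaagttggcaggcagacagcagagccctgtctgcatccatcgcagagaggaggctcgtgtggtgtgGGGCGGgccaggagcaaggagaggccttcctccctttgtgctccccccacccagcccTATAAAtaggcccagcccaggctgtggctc
Aqp3: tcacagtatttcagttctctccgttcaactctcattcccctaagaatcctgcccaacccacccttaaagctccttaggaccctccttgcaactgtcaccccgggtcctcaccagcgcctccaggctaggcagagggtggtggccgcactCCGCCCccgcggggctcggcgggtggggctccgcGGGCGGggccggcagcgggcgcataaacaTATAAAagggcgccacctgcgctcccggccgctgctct
Slc12a3: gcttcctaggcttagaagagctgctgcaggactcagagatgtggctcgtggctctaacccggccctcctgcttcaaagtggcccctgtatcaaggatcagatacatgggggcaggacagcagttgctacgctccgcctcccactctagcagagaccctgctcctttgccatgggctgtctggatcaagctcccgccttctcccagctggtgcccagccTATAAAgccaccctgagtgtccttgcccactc
Each of the 3 held TATAAA once, beginning at -30 in Aqp1, -38 in Aqp3 and -32 in Slc12a3, counted from the transcript start, and none of the other 4 genes with an entry held it. Of 33469 rat promoter windows of this length, 12.9% held TATAAA and 30.5% held GGGCGG. The GC box occurred once in Aqp1 and 2 times in Aqp3, and Slc12a3 had none. Aqp4, Aqp5, Scnn1b and Scnn1g, whose sequences are not printed, also held it. The glucocorticoid response element was searched on both strands as AGAACA followed after any 3 bases by TGTTCT, and in a looser form as GNACA followed after any 3 bases by TGTNC. These were found in 0.012% and 0.373% of the windows and in none of the 7 genes. A match is only a run of letters, and a missing match says only that the letters are not in this window.

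Values are normalised read counts, that is, reads per gene divided by a size factor of the library, and each tissue was scaled by itself. Libraries held 8854272 to 18848151 reads. Markers of the labelled tissue were higher in it than in any library of another tissue, except that astrocyte markers reached 3626 RPM (reads scaled to a common library total) in adipose tissue, against 2973 to 3997 in hypothalamus. Some libraries stood apart. Lung air 2, liver air 1, adrenal air 8 and ozone 16, hypothalamus ozone 17 and adipose ozone 22 lay at an end of the first principal component. Liver air 1 and ozone 19, adrenal ozone 17, 19 and 20 and air 8, and hypothalamus air 1 and air 3 were high in alveolar type 2 markers. Adipose air 2 was high in muscle markers. In bulk tissue, a change in the number of cells of a type and a change in the RNA per cell cannot be told apart.

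Of the 54 combinations of a gene and a tissue, 38 had a mean normalised count of at least 10 and were tested, and the other 16 were too low. Of the 38, 7 rose after ozone, 2 fell and 29 did not pass an adjusted p of 0.05 (limma, Benjamini-Hochberg over all genes of the tissue). In lung 4 of 9 tested genes rose and 0 fell, where 9.51% of all tested genes rose and 8.18% fell (17.7% in all). In liver 2 of 6 rose and 0 fell, where 6.74% of all tested genes rose and 4.72% fell (11.5% in all). In adipose tissue 1 of 6 rose and 0 fell, where 3.87% of all tested genes rose and 3.45% fell (7.32% in all). In muscle 2 of 3 fell and 0 rose, where 22.1% of all tested genes fell and 21.6% rose (43.7% in all). In adrenal gland 0 of 7 passed, where 9.23% of all tested genes rose and 9.38% fell (18.6% in all). In hypothalamus 0 of 7 passed, where 0.789% of all tested genes rose and 0.624% fell (1.41% in all). At an unadjusted p under 0.05, limma gave 4 in adrenal gland and 1 in hypothalamus, and at an adjusted p of 0.05 edgeR called 0 and 0 and DESeq2 2 and 1. Since the genes were listed with these values known, nothing is read from these counts. In 5 of the 38 tests 1 of the 2 groups had a mean under 10, so the gene was tested only because of the other group. These were Slc12a3 and Aqp4 in liver, Aqp5 in adrenal gland and hypothalamus and Scnn1b in adipose tissue.

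**Figure D1:**
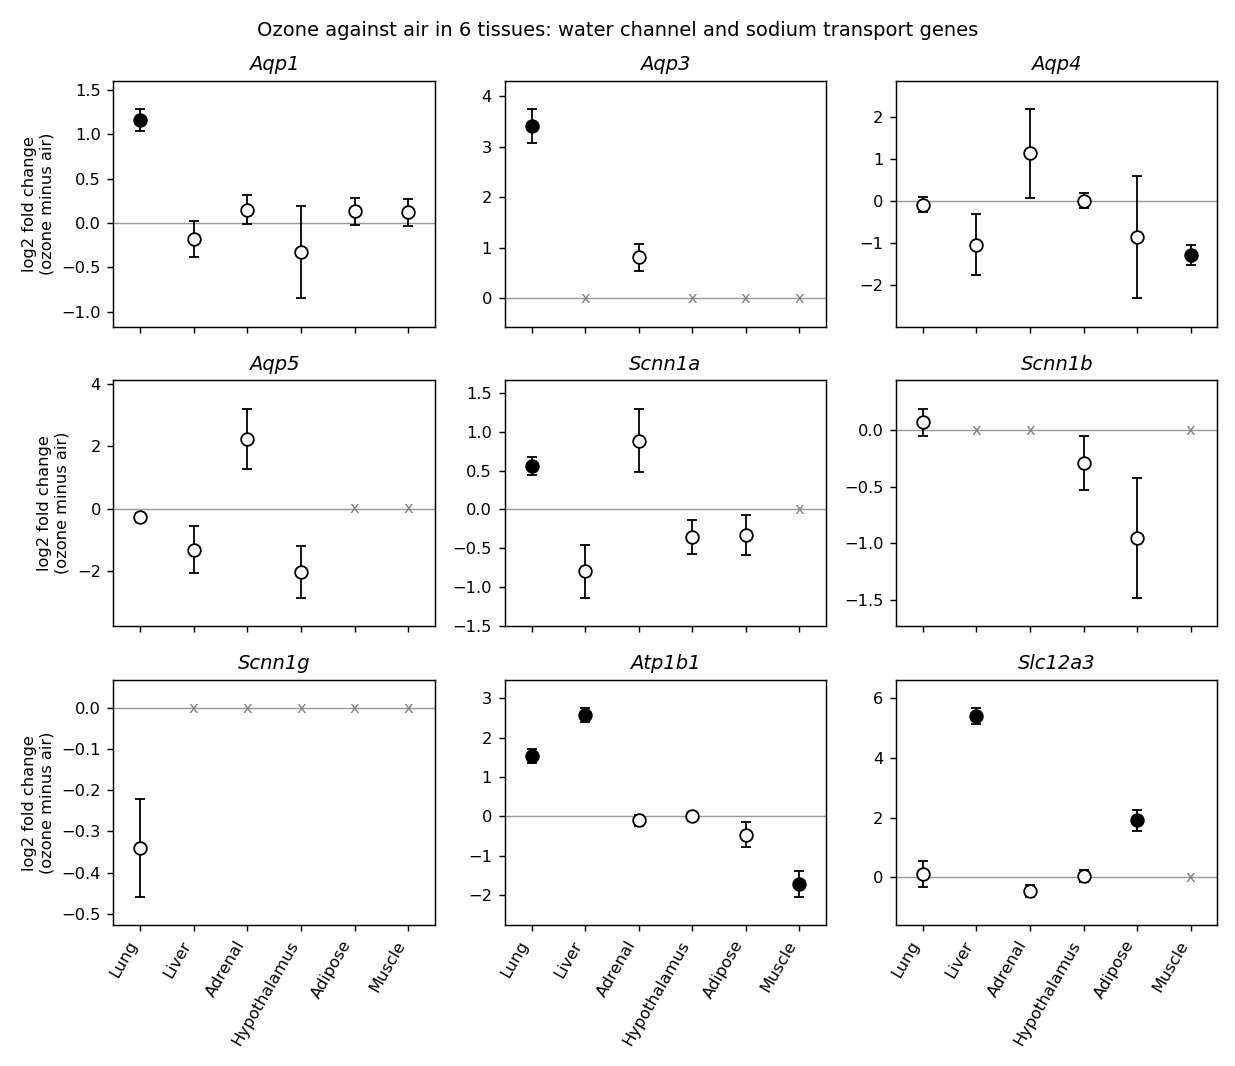
Log2 fold change (ozone minus air) of each of the 9 genes in each tissue, with its standard error. Filled points passed an adjusted p of 0.05, open points did not, and a cross marks a gene that was too low to be tested. Aqp3 reached 3.41 in lung and Slc12a3 5.41 in liver, and Atp1b1 was above 0 in lung and liver and below 0 in muscle.

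Aqp1 and Aqp3 rose in lung, while Aqp4 and Aqp5 did not pass there. Aqp1 had 13845, 11686, 14765, 11372, 16588 and 16470 normalised counts in the ozone lungs, against 6756, 4676, 6851, 6192, 6554 and 6739 in the air lungs. Every ozone lung was above every air lung, as in 5.54% of all genes tested in lung. On the log2 scale the difference was 1.16 ± 0.12 (SE), or 2.24-fold (limma adjusted p = 2.03e-05). Of 7 endothelial markers Cldn5 rose and Kdr fell, and their summed counts overlapped, with 56165 to 63475 after ozone and 52742 to 73135 in air. Red cells also carry Aqp1. Of 6 red cell markers 0 rose and Epb42 fell, with sums of 13654 to 21816 after ozone and 9078 to 17296 in air, and the part of red cells in the Aqp1 result was not tested.

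Aqp3 had 235, 241, 379, 201, 194 and 359 normalised counts in the ozone lungs, against 26.2, 17.1, 8.87, 41.9, 21.3 and 44.1 in the air lungs. The groups did not overlap, and the lowest ozone lung was well above the highest air lung. Ozone lungs were 10.7-fold higher, or 3.41 ± 0.33 on the log2 scale (limma adjusted p = 9.7e-06), resting on 1601 reads in 6 ozone lungs and 163 in 6 air lungs. Of 8 general epithelial markers, Epcam (0.36 ± 0.10), Cdh1 (0.29 ± 0.09) and Cldn4 (0.62 ± 0.19) rose in the same lungs, and the summed counts were 14385 to 19754 after ozone and 10917 to 16172 in air. The basal cell keratin Krt5 reached at most 1.84 after ozone and 5.02 in air, and Krt14 had 0.41 ± 0.44 (adjusted p = 0.563). The part of a shift in epithelial cells in the Aqp3 result was not tested.

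Aqp4 had a median of 1747 normalised counts (1349 to 2104) in the ozone lungs, against 1956 (1094 to 2383) in the air lungs, a log2 difference of -0.08 ± 0.18 (adjusted p = 0.795). Aqp5 had a median of 5640 (3944 to 6026) after ozone, against 5772 (5043 to 8280) in air, with -0.27 ± 0.15 (adjusted p = 0.248). Both pairs of groups overlapped. Within each lung the log2 ratio of Aqp1 to Aqp5 does not depend on library scaling, and it was 1.44 ± 0.14 after ozone and 0.01 ± 0.30 in air (SD, n = 6 each), with no overlap. Both genes were listed with their values known, so this ratio restates their results and is not further evidence. Alveolar type 1 markers, which belong to the cells that carry Aqp5, had sums of 99630 to 107999 after ozone and 89376 to 114239 in air, with Hopx risen and Rtkn2 fallen among 7.

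**Figure D2:**
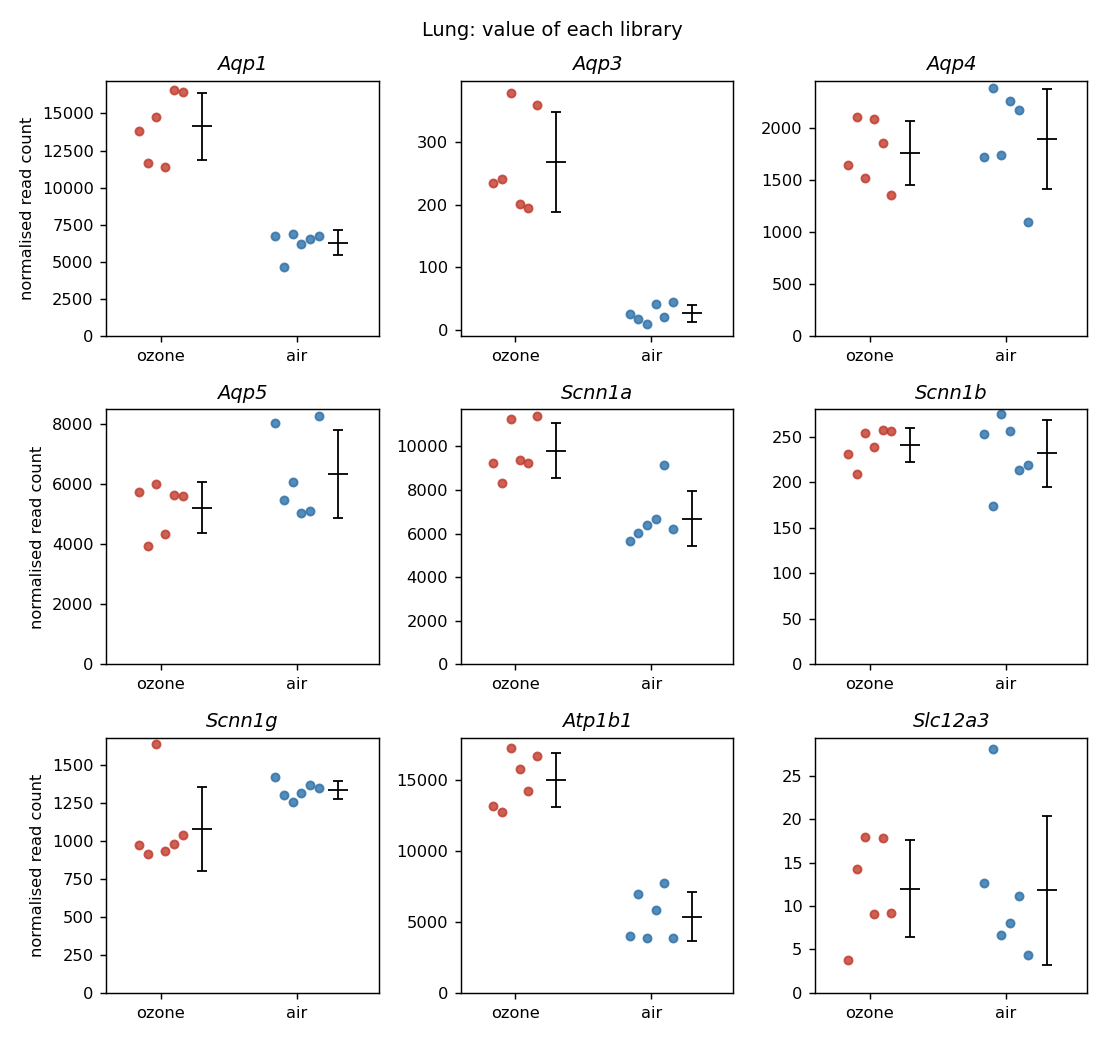
Normalised read count of each of the 9 genes in lung, 1 point per library (6 ozone on the left, 6 air on the right), with the mean and SD beside the points. Aqp1, Aqp3 and Atp1b1 show no overlap between the groups, and in Scnn1g 1 ozone lung at 1635 lies apart from the other 5.

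In muscle Aqp4, the water channel of the fibre membrane, fell. It had 1454, 4569, 2171, 1670 and 2178 normalised counts in the ozone muscles, against 4798, 4581, 6034, 7023, 4761 and 5181 in the air muscles. All 5 ozone libraries were below all 6 air libraries, as were 11.5% of all tested genes, but ozone 15 lay just under the lowest air library. The log2 fold change was -1.27 ± 0.24, or 0.414 times the air level (limma adjusted p = 0.00113). Aqp4 was called in each of the 11 fits that left out a library, with a range of -1.53 (without ozone 15) to -1.12.

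Skeletal muscle markers themselves differed between these groups. Of 6, Acta1, Ckm, Myh2, Tnnt3 and Tnni2 rose and Myh7 fell, and the summed counts were 3108510 to 5150178 after ozone and 1494040 to 2626060 in air. Myh7, the myosin of slow fibres, had a median of 10177 (5051 to 226274) after ozone and 213736 (96498 to 669727) in air, a log2 fold change of -3.51 ± 0.93 (adjusted p = 0.00879). Myh2, a myosin of fast fibres, had 1.48 ± 0.22 (adjusted p = 0.000211). Aqp4 is known from fast fibres. Of 7 endothelial markers Cldn5 rose, and Vwf, Kdr, Tek and Tie1 fell. The part of these shifts in the Aqp4 result was not tested.

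Aqp1 in muscle had a median of 4655 after ozone (3571 to 5219) and 4367 in air (3225 to 5015), with a log2 difference of 0.12 ± 0.15 (adjusted p = 0.536). Its sign turned to -0.21 when libraries were scaled to equal totals. In the remaining tissues Aqp1 did not pass either, with -0.18 ± 0.20 in liver, 0.15 ± 0.16 in adrenal gland, -0.33 ± 0.52 in hypothalamus and 0.13 ± 0.15 in adipose tissue.

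Aqp3 in the adrenal gland came close to the threshold. It had 155, 159, 77.5, 174, 89.9 and 114 normalised counts in the ozone adrenals, against 59.7, 68.6, 46.6, 119 and 70.6 in the air adrenals. All 6 ozone libraries were above the air median, and the ranges overlapped through air 9 at 119. The log2 difference was 0.81 ± 0.27 (limma adjusted p = 0.0528). It passed without ozone 16 (0.94, adjusted p = 0.0232), without ozone 19 (0.90, adjusted p = 0.0499) and without air 9 (1.00, adjusted p = 0.0171), and over all 11 such fits the adjusted p ran from 0.0171 to 0.116. With all libraries it also passed with DESeq2 (adjusted p = 0.0221), with array weights in limma (0.00399) and with a mean of at least 50 as the filter (0.0483). Aqp3 was near 0 elsewhere, with 2 reads over all ozone libraries and 2 over all air libraries of liver, 3 and 2 of hypothalamus, 5 and 1 of adipose tissue and 0 and 1 of muscle.

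Aqp4 did not pass outside muscle. In hypothalamus, where it is the channel of astrocyte endfeet, it had 11568 to 20922 normalised counts after ozone and 12634 to 23412 in air, and the log2 difference was 0.01 ± 0.18. In liver, adrenal gland and adipose tissue it was low, and single libraries held much of it. In liver it had 139 in air 1 and 0.979 to 22.7 in the other 11 libraries. In adrenal gland it had 227 in air 8, against 4.84 to 59.9 after ozone and 0.806 to 22.7 in the other 4 air libraries. The adrenal log2 difference was 1.14 ± 1.05 (adjusted p = 0.51) with air 8 and 2.22 ± 0.71 (adjusted p = 0.0369) without it. With it, array weights in limma gave 2.30 (adjusted p = 0.0428) and edgeR -0.77. In adipose tissue air 2 had the highest Aqp4, 161, and also the highest sum of 6 skeletal muscle markers, 226985, against 909 to 36634 in the other 9 libraries. The next highest, air 5 (44.0), ozone 23 (42.4) and ozone 16 (37.3), were also the next highest in muscle markers (36634, 16234 and 33172). The part of muscle RNA in these values was not tested.

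Aqp5 passed in no tissue in the limma fit with all libraries, yet it varied widely where its level was low, and several of its high values lay in libraries high in surfactant genes. In the ozone adrenals it had 91.6, 67.4 and 26.5 in libraries 20, 19 and 17 and 1.36 to 7.74 in the other 3, and in the air adrenals 17.9 in air 8 and 0.806 to 1.72 in the other 4. The summed counts of 9 alveolar type 2 markers, such as surfactant proteins, were 5318, 3384 and 2680 in ozone 20, 19 and 17, and 2086 in air 8, against 813 to 1278 in the other 7 libraries. Of 7 alveolar type 1 markers, 6 were tested in adrenal gland, and Ager, Hopx, Cav1 and Clic5 rose. Their sums did not overlap, with 2560 to 3764 after ozone and 1249 to 2155 in air. Ozone 16, with 1.36 of Aqp5, was thus also above every air library in type 1 markers. The part of either marker list in adrenal Aqp5 was not tested. The log2 difference of Aqp5 was 2.24 ± 0.96 (adjusted p = 0.125). It passed without ozone 16 (2.80, adjusted p = 0.0383) and without air 8 (2.85, adjusted p = 0.0344). With all libraries it passed with DESeq2 (2.87, adjusted p = 0.0182) and with array weights in limma (3.51, adjusted p = 0.00406).

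In liver Aqp5 had 18.6, 16.3, 9.55, 54.8, 221 and 16.0 after ozone and 290, 42.1, 73.4, 27.1, 196 and 31.1 in air (-1.30 ± 0.75, adjusted p = 0.337). The highest alveolar type 2 sums of the liver libraries were 12474 in air 1, 6512 in ozone 19 and 3244 in ozone 18, and the others had 954 to 2584. Air 9, with 196 of Aqp5, had a sum of only 2464. In hypothalamus Aqp5 had 0 to 4.04 after ozone and 79.5, 0.945, 26.1, 9.68, 4.08 and 2.58 in air, with -2.02 ± 0.82 (limma adjusted p = 0.273), and DESeq2 alone called it (-3.44, adjusted p = 0.021). Air 1 and air 3, the 2 highest, also had the highest alveolar type 2 sums, 3763 and 2852, against 1499 to 2260 in the other 10. The part of lung RNA in these values was not tested. In muscle Aqp5 had 0 reads in 11 libraries, which allows up to 0.0161 RPM, and in adipose tissue 2 reads over the ozone and 0 over the air libraries.

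**Figure D3:**
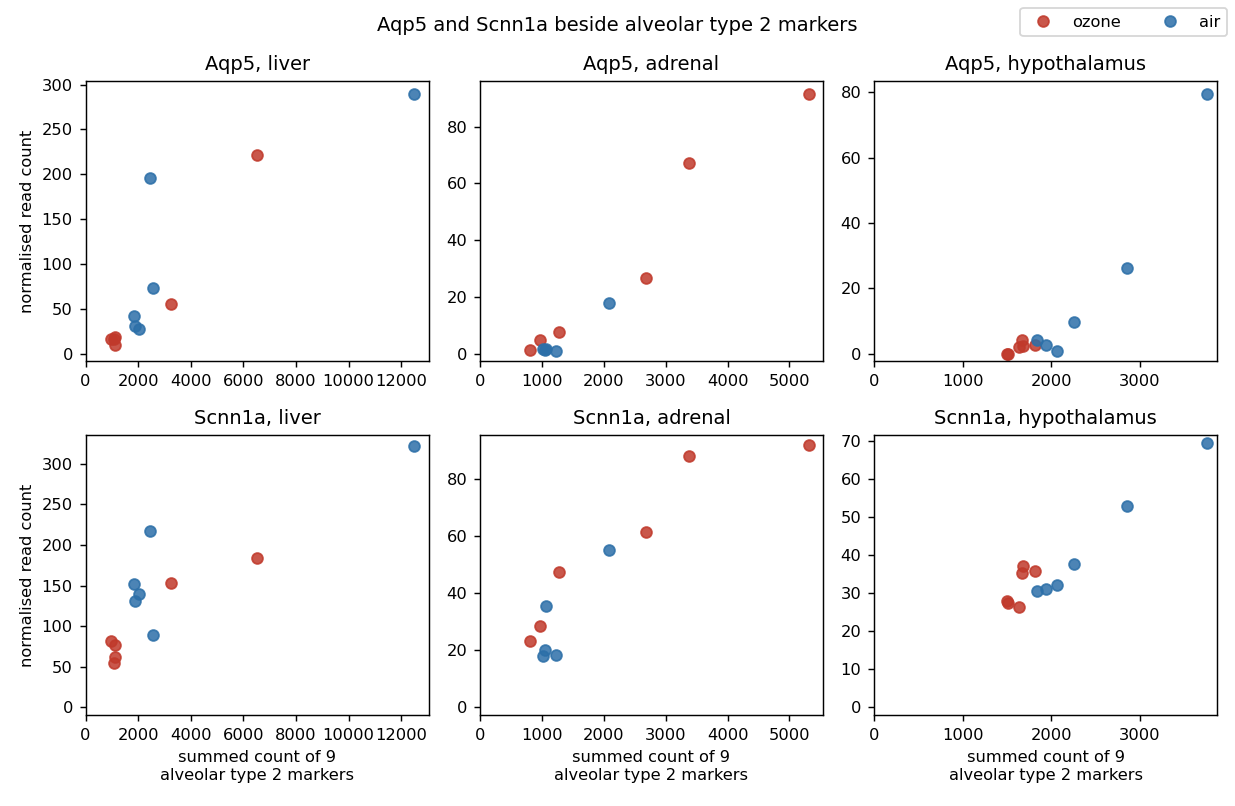
Normalised read count of Aqp5 (top) and Scnn1a (bottom) against the summed count of 9 alveolar type 2 marker genes in liver, adrenal gland and hypothalamus, 1 point per library, ozone in red and air in blue. In each panel the libraries highest in the markers are high in the transporter gene, such as air 1 in liver and hypothalamus and ozone 20 in adrenal gland, while liver air 9 is high in both genes at a marker sum of 2464.

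Of the epithelial sodium channel subunits, only Scnn1a passed in lung. Scnn1a, the alpha subunit, had 9255, 8303, 11266, 9381, 9235 and 11390 normalised counts in the ozone lungs, against 5667, 6032, 6380, 6650, 9143 and 6221 in the air lungs. The groups overlapped only through air 9. Scnn1a rose by 0.56 ± 0.12 on the log2 scale, 1.48-fold (limma adjusted p = 0.00441), and was called in each of the 12 fits that left out a library.

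Scnn1g, the gamma subunit, had 973, 916, 1635, 932, 977 and 1039 normalised counts in the ozone lungs, against 1419, 1301, 1256, 1314, 1368 and 1350 in the air lungs. Thus 5 ozone lungs were below every air lung, and ozone 15 was above all of them. The log2 difference was -0.34 ± 0.12 (adjusted p = 0.0745) and did not pass. Without ozone 15 it was -0.46 ± 0.07 (adjusted p = 0.000644), and it also passed with array weights (adjusted p = 0.0139) and with equal library totals (adjusted p = 0.0259). Scnn1b, the beta subunit, had 209 to 258 after ozone and 174 to 275 in air, with 0.07 ± 0.12 (adjusted p = 0.723).

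Within each lung, the log2 ratio of Scnn1a to Scnn1g was 3.21 ± 0.23 after ozone and 2.31 ± 0.25 in air (SD, n = 6 each), and every ozone lung (2.78 to 3.45) was above every air lung (2.00 to 2.74). The log2 ratio of Scnn1a to Scnn1b was 5.34 ± 0.12 after ozone and 4.85 ± 0.36 in air, with overlap. These ratios are not corrected for transcript length, so only their difference between groups is read. The subunits were listed with their values known, so the ratios are a description and not further evidence. Alveolar type 2 markers, 9 in number, had sums of 326066 to 428953 in the ozone lungs and 235651 to 324149 in the air lungs, with Sftpa1, Sftpb and Sftpd risen and Lamp3 fallen, and their part in the Scnn1a result was not tested.

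Outside the lung the channel genes were low and none passed. Scnn1a in liver had 61.7, 81.7, 77.4, 153, 184 and 54.5 after ozone and 322, 152, 88.9, 139, 217 and 131 in air (-0.80 ± 0.34, adjusted p = 0.167). Its highest liver value, like that of Aqp5, was in air 1. In adrenal gland Scnn1a had 28.6, 47.4, 23.1, 61.2, 87.9 and 91.6 after ozone and 18.5, 20.2, 55.0, 18.1 and 35.3 in air (0.89 ± 0.41, adjusted p = 0.155), and without air 8 it passed (1.14, adjusted p = 0.0446). Array weights in limma, over all libraries, gave 1.39 (adjusted p = 0.00398). The 3 highest were again ozone 20, 19 and 17. In hypothalamus it had -0.35 ± 0.22 with its highest values, 69.5 and 53.0, in air 1 and air 3, and in adipose tissue -0.33 ± 0.26. Scnn1b had -0.29 ± 0.24 in hypothalamus and -0.95 ± 0.53 in adipose tissue (adjusted p = 0.602 and 0.327). Scnn1b in adrenal gland was under the filter, with 54 reads in 6 ozone and 16 in 5 air libraries, and with no filter it had 1.63 ± 0.49 (adjusted p = 0.0427), the only one of the 15 combinations that were fitted without the filter to pass. Scnn1g had at most 49.4 outside lung, in liver air 1.

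Atp1b1 encodes the beta-1 subunit, which brings the sodium pump to the membrane. It rose in lung and liver and fell in muscle. In lung it had 13186, 12778, 17311, 15811, 14236 and 16739 normalised counts after ozone, against 3984, 6947, 3885, 5877, 7723 and 3857 in air. No air lung reached the lowest ozone lung, and the air lungs themselves spread over a range in which air 2, 8 and 9 were higher than air 1, 7 and 10. The log2 fold change was 1.53 ± 0.18 (limma adjusted p = 4.3e-05). In liver it had 8003, 8729, 9756, 9593, 9556 and 8355 after ozone, against 1786, 1988, 1163, 1501, 1859 and 982 in air, with no overlap, as had 4.77% of all tested genes in that direction. Liver Atp1b1 was 5.99-fold higher, or 2.58 ± 0.17 on the log2 scale (limma adjusted p = 2.99e-07).

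In muscle Atp1b1 had 1171, 4917, 2127, 2817 and 1151 normalised counts after ozone, against 7445, 8625, 8596, 5966, 7152 and 4777 in air. Only ozone 15 reached into the air range. It fell by 1.73 on the log2 scale, with an SE of 0.33 (limma adjusted p = 0.00129), and was called in all 11 fits that left out a library. It did not pass in adrenal gland (-0.10 ± 0.14) or adipose tissue (-0.47 ± 0.32). In hypothalamus it had 26080 to 40725 normalised counts after ozone and 29582 to 37098 in air, 0.998 times the air level (adjusted p = 0.997).

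Other sodium pump subunits and the FXYD regulators of the pump were followed as a list of 14. For this and the later lists, counts of called genes stand beside the shares of all tested genes given above. Nothing is read from them. In lung Atp1b4 fell (-1.33 ± 0.23, limma adjusted p = 0.00112). In muscle Atp1b2, the other beta subunit of muscle, rose (0.92 ± 0.19, limma adjusted p = 0.00178), and Fxyd6 fell (-2.62 ± 0.54, adjusted p = 0.00202). The log2 ratio of Atp1b1 to Atp1b2 within a muscle was -3.41 ± 1.08 after ozone and -0.75 ± 0.62 in air, and no ozone muscle (-4.51 to -1.93) reached the air range (-1.51 to 0.09). With 1 gene fallen and the other risen, this ratio restates those results and is not further evidence. Atp1b1 is known to be the more abundant beta subunit in slow fibres and Atp1b2 in fast fibres, and Myh7 and Myh2 moved in these muscles as given above. Their part was not tested. None of the list passed in adrenal gland, hypothalamus or adipose tissue, where 8, 10 and 11 were tested.

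**Figure D4:**
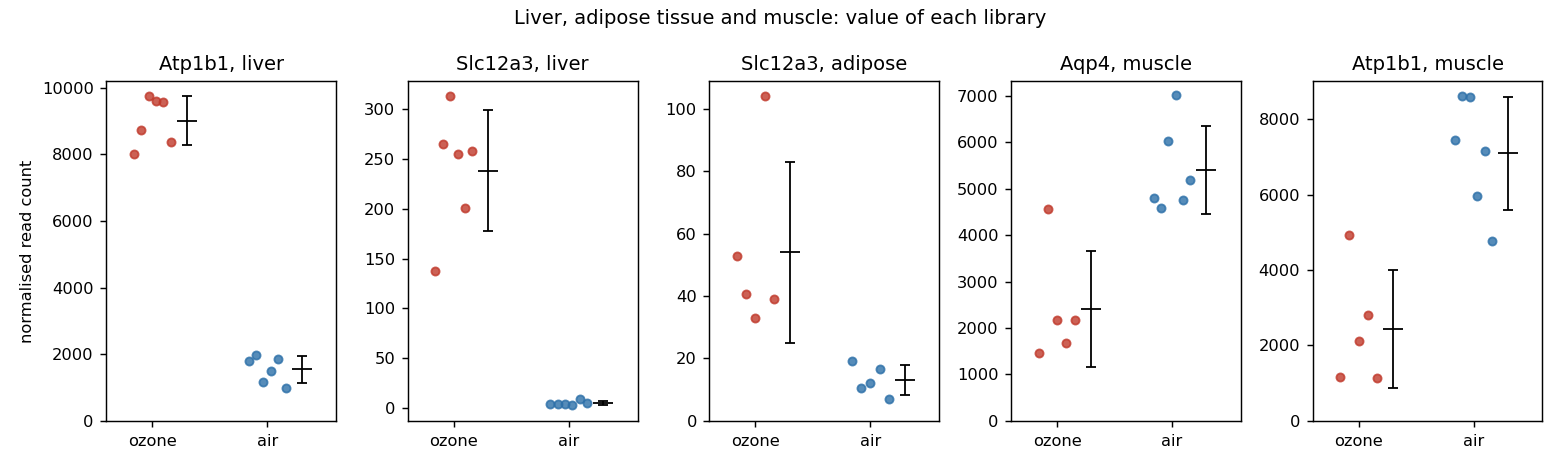
Normalised read counts of Atp1b1 and Slc12a3 in liver, Slc12a3 in adipose tissue and Aqp4 and Atp1b1 in muscle, 1 point per library, ozone left and air right in each panel, with the mean and SD. The 2 liver panels show no overlap, and in both muscle panels ozone 15, at 4569 for Aqp4 and 4917 for Atp1b1, is the ozone library nearest to the air libraries.

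Slc12a3 rose in liver and in adipose tissue, neither of which is its known site. The liver had 138, 265, 313, 255, 201 and 258 normalised counts after ozone, against 4.21, 3.74, 4.14, 2.63, 9.14 and 4.71 in air. The ozone livers together had 1385 reads of the gene and the air livers 30. In the fit the difference was 42.4-fold, or 5.41 ± 0.26 on the log2 scale (limma adjusted p = 5.58e-08), and over the 12 fits that left out a library it ran from 5.29 to 5.59. Kidney markers were also looked at. Slc12a1, the cotransporter of the loop of Henle, had at most 3.47 after ozone and 0 in air, Calb1 at most 4.28 and 1.87, and Slc22a6 at most 9.55 and 10.5. The sum over 7 kidney tubule markers was 3216 to 5062 in the ozone livers and 3882 to 5560 in the air livers. Most of it came from Slc22a8, with 2593 to 4710 after ozone and 3088 to 4966 in air.

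In adipose tissue Slc12a3 had 52.9, 40.8, 32.9, 104 and 39.2 normalised counts after ozone, against 19.2, 10.6, 12.3, 16.5 and 7.01 in air. All ozone libraries were above all air libraries, as were 4.38% of tested genes, and ozone 22 was the highest by far. The log2 fold change was 1.91 ± 0.36, a 3.75-fold difference (limma adjusted p = 0.00836), resting on 247 reads after ozone and 74 in air, and it was called in each of the 10 fits that left out a library. Without the 4 libraries highest in muscle markers, air 2 and 5 and ozone 16 and 23, it was 2.11 ± 0.53 with an adjusted p of 0.163, and the calls over all genes fell to 29, against 1043 with all libraries. Slc12a1 was at 0 in all 10 adipose libraries, and Slc22a6 and Calb1 did not exceed 1.06. The sum over the 7 kidney tubule markers was 238, 241, 240, 317 and 301 in the ozone libraries, against 254, 222, 139, 218 and 143 in the air libraries. On this sum 4 of the 5 air libraries were below every ozone library, and its part in the Slc12a3 result was not tested.

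In the other tissues Slc12a3 did not pass. It had 3.75 to 17.9 normalised counts after ozone and 4.31 to 28.1 in air in lung (0.10 ± 0.43), 30.5 to 57.2 and 46.8 to 78.2 in adrenal gland (-0.47 ± 0.20, adjusted p = 0.116), and 28.9 to 44.5 and 27.6 to 53.9 in hypothalamus (0.04 ± 0.19). In muscle it had 30 reads after ozone and 34 in air and was not tested.

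The other cation-chloride cotransporters were looked at as a list of 8. Slc12a7, a potassium-chloride cotransporter, fell in 5 tissues: by 0.40 on the log2 scale in lung, 0.57 in liver, 0.46 in adrenal gland, 0.87 in adipose tissue and 1.11 in muscle, with SEs of 0.09, 0.10, 0.10, 0.12 and 0.17. Its limma adjusted p-values in that order were 0.00569, 0.00207, 0.00676, 0.00126 and 0.000315, and it was called in every fit that left out a single library in these tissues. Without the 4 adipose libraries highest in muscle markers it had -0.81 in adipose tissue (adjusted p = 0.142). Slc12a4, of the same family, rose in lung (0.31 ± 0.08) and liver (0.37 ± 0.10), both calls being lost with equal library totals (adjusted p = 0.0624 in lung and 0.0709 in liver, where it also held in only 6 of 12 fits that left out a library), and fell in muscle (-1.05 ± 0.16). Slc12a5 fell in adrenal gland (-0.68 ± 0.19, held in 9 of 11 fits that left out a library). In hypothalamus 7 were tested and none passed. The list's median log2 fold change was 0.09 in lung, -0.06 in liver, -0.27 in adrenal gland, -0.14 in hypothalamus and -0.11 in adipose tissue, where the median of all tested genes lay between -0.00 and 0.01. For muscle, where Slc12a4 and Slc12a7 fell, the median of the list is not reported here.

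The kinases that switch Slc12a3 on, the WNK kinases with SPAK and their ubiquitin ligase, were followed as a list of 10. In liver, where Slc12a3 rose, 5 were tested and none passed. In lung 10 were tested and Wnk2 alone rose, by 2.19 ± 0.17 (limma adjusted p = 1.84e-06), with 546 ± 67.1 after ozone and 123 ± 44.1 in air (SD, n = 6 each). Wnk2 also rose in muscle, by 1.35 ± 0.17 (adjusted p = 7.04e-05), with Wnk3 (1.09 ± 0.30) and Cul3 (0.53 ± 0.11), while Wnk1 fell (-0.68 ± 0.15). Wnk3 had a mean of 16.3 after ozone and 7.54 in air (76 and 49 reads), so it was tested only because of the ozone group. With equal library totals Wnk3 and Cul3 no longer passed in muscle (adjusted p = 0.0546 and 0.149). Wnk4, the kinase of the distal tubule, passed in none of the 4 tissues where it was tested, with 0.38 ± 0.15 in lung (adjusted p = 0.0856). In adipose tissue Cab39 rose (1.17 ± 0.24), and in adrenal gland Cab39l (-0.89 ± 0.24) and Oxsr1 (-0.51 ± 0.15, held in 4 of 11 fits that left out a library) fell. None of 10 passed in hypothalamus.

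Regulators of the epithelial sodium channel were a list of 18, holding the kinase Sgk1, the ubiquitin ligase Nedd4l, channel-cleaving proteases and the corticosteroid receptors and enzymes. In lung 17 were tested, 5 rose and 1 fell, where 9.51% of all tested genes rose and 8.18% fell. Sgk1 rose by 0.54 ± 0.12, Tsc22d3, a glucocorticoid-induced gene, by 1.21 ± 0.25, and Nedd4l, which removes the channel from the membrane, by 0.74 ± 0.22. The Nedd4l call held in 7 of 12 fits that left out a library. The proteases Tmprss4 (0.82 ± 0.18) and Furin rose and Tmprss2 (-0.46 ± 0.11) fell. The receptors Nr3c1 (-0.46 ± 0.16, adjusted p = 0.0601) and Nr3c2 (-0.29 ± 0.22, adjusted p = 0.395) and the enzyme Hsd11b2 (-0.75 ± 0.31, adjusted p = 0.114) did not pass. The median of the list in lung was 0.12, against 0.00 over all genes.

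In liver 17 of the list were tested, 2 rose and 2 fell, where 6.74% of all tested genes rose and 4.72% fell. Usp2, a deubiquitinase, rose by 2.75 ± 0.46 and Tsc22d3 by 1.04 ± 0.25, and the glucocorticoid receptor gene Nr3c1 (-0.87 ± 0.25) and Sgk2 (-1.04 ± 0.31) fell, calls that held in 5 and 3 of 12 fits that left out a library. Sgk1 in liver had -0.29 ± 0.26 (adjusted p = 0.59). In adipose tissue 16 were tested, where 3.87% of all tested genes rose and 3.45% fell. Sgk1 (1.03 ± 0.20), Tsc22d3 (1.25 ± 0.22) and Hsd11b1 (0.66 ± 0.16) rose, while Tmprss2 (-1.82 ± 0.40), Nr3c1 (-0.79 ± 0.22) and the mineralocorticoid receptor gene Nr3c2 (-0.76 ± 0.19) fell. Of these, Hsd11b1, Nr3c2 and Nr3c1 held in 3, 4 and 1 of 10 fits that left out a library, and none of the 6, nor Cab39, passed without the 4 libraries highest in muscle markers (adjusted p between 0.198 and 0.420).

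In muscle 12 were tested, where 21.6% of all tested genes rose and 22.1% fell. Nedd4l (0.84 ± 0.13), Sgk1 (0.67 ± 0.18), Tsc22d3 (0.51 ± 0.19, held in 3 of 11 fits that left out a library), Furin (0.50 ± 0.10) and Usp2 rose, and Sgk3 (-1.46 ± 0.30), Nr3c1 (-0.53 ± 0.16) and Hsd11b1 fell. Sgk3 had a mean of 6.22 after ozone and 18.9 in air (29 and 123 reads), so it was tested only because of the air group. With equal library totals, which moved the median log2 fold change of all muscle genes to -0.305 from 0.016, Sgk1, Tsc22d3 and Furin no longer passed (adjusted p = 0.121, 0.419 and 0.174). In hypothalamus 15 were tested, and Usp2 (0.98 ± 0.16) and Sgk1 (1.27 ± 0.29, adjusted p = 0.0451, held in 3 of 12 fits that left out a library) rose. In adrenal gland 14 were tested, Hsd11b1 rose (0.42 ± 0.10, lost with equal library totals at adjusted p = 0.0891), and Sgk3 (-1.04 ± 0.21) and Nedd4 (-0.49 ± 0.14, held in 4 of 11) fell. Tsc22d3 did not pass in adrenal gland (-0.44 ± 0.17, limma adjusted p = 0.102) or hypothalamus (0.66 ± 0.17, adjusted p = 0.0785). In adrenal gland it passed as fallen with equal library totals (adjusted p = 0.0153) and with array weights (0.0372). In hypothalamus it passed as risen with array weights (adjusted p = 0.0411) and with DESeq2 (0.0176).

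The remaining transport genes were a list of 16 sodium, chloride and bicarbonate transporters and a list of 8 further aquaporins. In lung the sodium-glucose cotransporter Slc5a1 fell by 1.27 on the log2 scale (SE 0.12, limma adjusted p = 5.76e-06), with 433 ± 51.6 after ozone and 1049 ± 185 in air (SD, n = 6 each), Slc9a2 fell (-0.40 ± 0.12, held in 6 of 12 fits that left out a library), and none of the 13 tested rose. In adrenal gland the sodium-proton exchanger Slc9a3 fell (-2.89 ± 0.61, adjusted p = 0.00548). In muscle the bicarbonate cotransporter Slc4a4 rose (1.31 ± 0.31), and the chloride channel Ano1 fell (-0.80 ± 0.20). In liver Slc34a2, a phosphate transporter that is also one of the alveolar type 2 markers, fell (-1.77 ± 0.48), a call that held in 5 of 12 fits that left out a library and was lost with edgeR (adjusted p = 0.0734). Of the other aquaporins Aqp9, the glycerol channel of hepatocytes, fell in liver by 0.58 on the log2 scale (SE 0.13, adjusted p = 0.00804), with 2269 ± 337 after ozone and 3382 ± 461 in air (SD, n = 6 each), and Aqp7 fell in muscle (-1.62 ± 0.35, adjusted p = 0.00259). Neither of 2 further aquaporins tested passed in lung, adrenal gland, hypothalamus or adipose tissue.

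Whether the ozone effect differed between tissues was tested for each gene by fitting all tissues at once in limma and testing the 5 interaction terms together, where 34.1% of 17361 genes passed. Of the 9 genes 7 passed, and since the genes were chosen with their tissue patterns known, this too is a description. Slc12a3 (adjusted p = 2.57e-16), Atp1b1 (8.9e-16) and Aqp3 (6.58e-09) had the smallest adjusted p-values, followed by Scnn1b (0.00182), Aqp5 (0.00695), Scnn1a (0.00976) and Aqp1 (0.0258). Scnn1b and Aqp5 passed here without passing in any single tissue. Part of the Scnn1b terms come from liver, adrenal gland and muscle, where it was under the filter. Terms from under the filter also enter for Aqp5 (adipose tissue and muscle) and for Scnn1a and Slc12a3 (muscle). Aqp3 was under it in liver, hypothalamus, adipose tissue and muscle. For Aqp4 (adjusted p = 0.503) and Scnn1g (0.132) a difference between tissues was not detected, although Aqp4 was called in muscle alone.

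Levels in air were compared across tissues in RPM, as a description with no test, since each tissue was scaled apart. Scnn1a, Scnn1b, Scnn1g and Aqp5 were highest in lung. Scnn1a had 551 ± 89.9 RPM in air lungs, against 12.3 ± 6.35 in liver, the next highest (SD, n = 6 each). Scnn1g had 110 ± 5.67, and Aqp5 405 to 696, in air lungs. The highest air library of any other tissue had 24.1 for Scnn1a, 3.70 for Scnn1g and 21.7 for Aqp5. Aqp1 had 521 ± 74.9 in lung and 503 ± 102 in adipose tissue (n = 5), which do not differ beyond their spread, then 280 ± 43.8 in muscle and 265 ± 66.9 in adrenal gland (n = 5), likewise within their spread, and 45.9 ± 10.8 in liver and 10.9 ± 4.40 in hypothalamus.

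Aqp4 was highest in hypothalamus, at 1507 ± 328 RPM, before muscle (363 ± 85.8) and lung (156 ± 37.2), and Atp1b1 too, at 2756 ± 211, before muscle (470 ± 83.6), lung (442 ± 130) and adrenal gland (378 ± 62.6, n = 5), which do not differ beyond their spread. Atp1b1 in liver had 605 ± 48.8 after ozone and 107 ± 26.4 in air. The ozone livers (564 to 688) overlapped the range of the air lungs (324 to 613), and the air livers (68.5 to 134) were below it. Aqp3 was highest in adrenal gland in air (6.98 ± 2.80, n = 5), above lung (2.20 ± 1.18), whereas after ozone lung had 21.1 ± 5.99 and adrenal gland 11.2 ± 3.82. Slc12a3 was lowest of all air groups in liver, 0.33 ± 0.15, close to muscle (0.351 ± 0.216). The ozone livers had 15.9 ± 3.58, above the range of every other group.

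**Figure D5:**
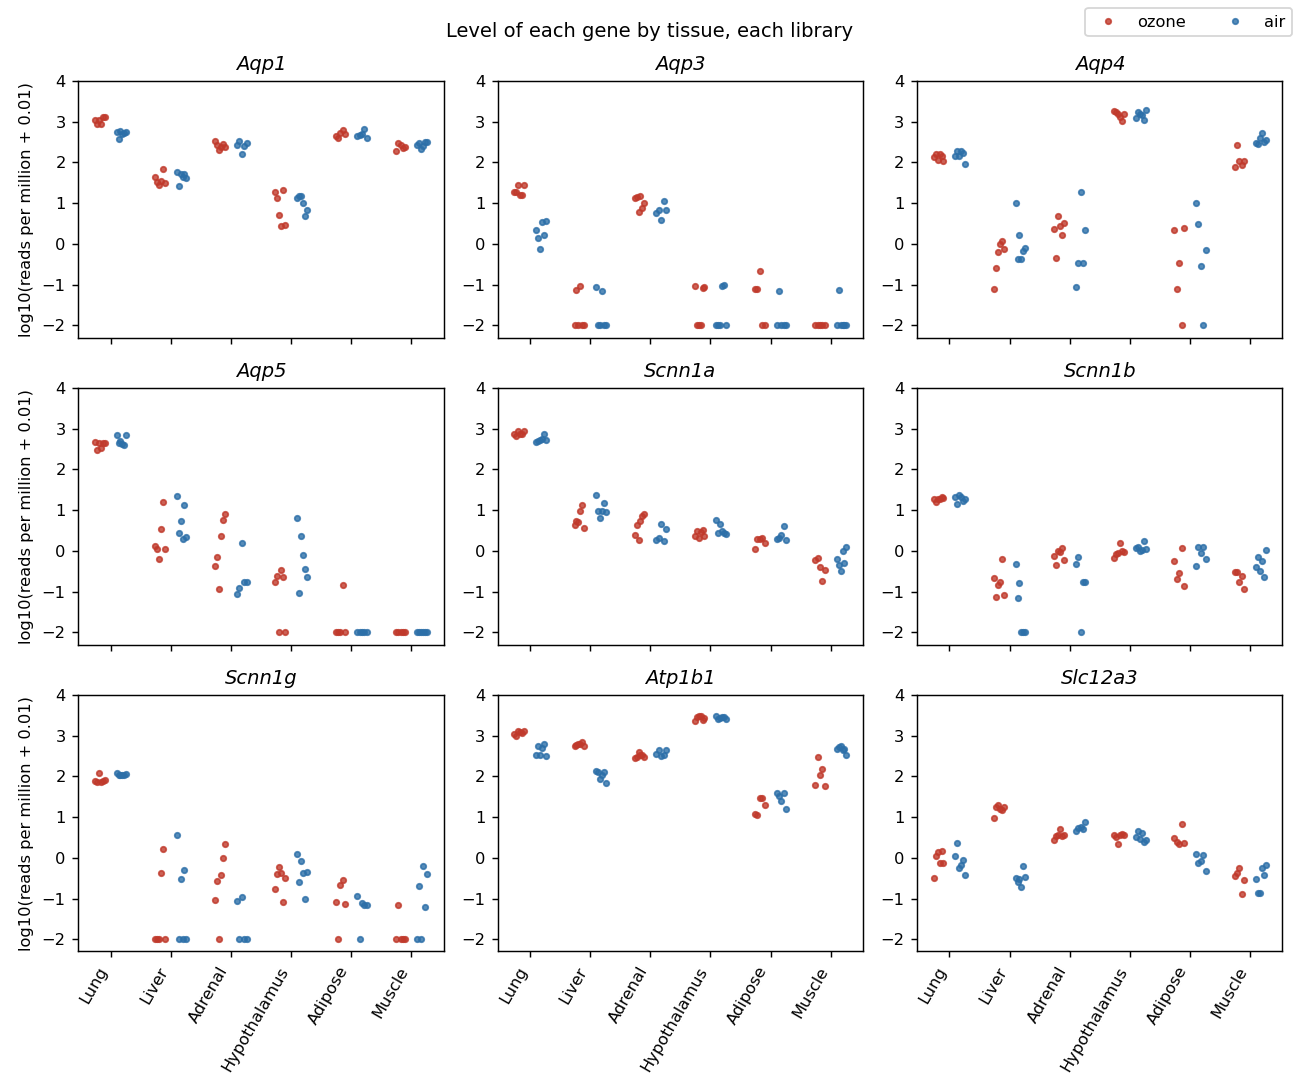
Level of each gene in each library as log10(RPM + 0.01), by tissue, ozone left (red) and air right (blue); points at -2 are libraries with 0 reads. Scnn1a, Scnn1b, Scnn1g and Aqp5 are highest in lung, Aqp4 and Atp1b1 in hypothalamus, and the ozone livers are the highest group for Slc12a3.

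The genes whose log2 fold changes over the tissues were most like each member were found by the root-mean-square difference. For Aqp1, over 6 tissues and 7047 candidate genes, they were Ern1 (0.16), Slc43a3 (0.17) and Mxd4 (0.17). Ern1 had 1.02 ± 0.12 in lung and between -0.17 and 0.20 elsewhere. For Scnn1a, over 5 tissues, they were Rffl (0.18), Slc7a7 (0.23) and Rassf3 (0.25), of which Rffl had 0.47 ± 0.08 in lung, -0.53 ± 0.12 in liver and 0.76 ± 0.17 in adrenal gland. For Aqp5, over the 4 tissues where it was tested, all 3 were alveolar type 2 markers, Slc34a2 (0.37), Sftpa1 (0.42) and Lamp3 (0.47). In lung their directions differed, with 0.20 ± 0.10, 0.49 ± 0.11 and -0.51 ± 0.12 in that order, against -0.27 ± 0.15 for Aqp5. Their SEs in liver, adrenal gland and hypothalamus were wide, from 0.48 to 1.65. For Aqp4 they were Cdr2l (0.31), Foxred2 (0.31) and Tgif2 (0.32). Cdr2l had -1.68 ± 0.20 in muscle.

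Atp1b1 and Slc12a3 had no close match. The nearest to Atp1b1 over 6 tissues were Ppl (0.61), Slc25a22 (0.63) and Plk3 (0.64), and Ppl had 2.29 ± 0.24 in liver but -0.63 ± 0.30 in muscle (adjusted p = 0.104). The nearest to Slc12a3 over 5 tissues were Car12 (1.10), Sh3pxd2b (1.15) and Spsb1 (1.24). Car12, a carbonic anhydrase, had 3.55 ± 0.28 in liver (limma adjusted p = 2.33e-06) and 2.52 ± 0.75 in adipose tissue (adjusted p = 0.064), and unlike Slc12a3 it rose in lung (1.32 ± 0.31, adjusted p = 0.00803). Aqp3, Scnn1b and Scnn1g were tested in too few tissues for this measure.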

How the data were processed

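Messenger RNA libraries from 6 rat tissues were used, 68 of the 70 labelled; air 7 of adrenal gland and ozone 17 of muscle were not analysed here. The authors deposited 1 table per tissue whose values are a signal, gene read counts divided by 1 size factor per library, as worked out from the values: 100% came out as whole reads within 0.01. Partek, DESeq2 and the rn6 build are named per the submitters' processing notes; the aligner, the annotation and any strand setting were not stated there, and values of paralogs and overlapping genes are therefore uncertain. Of 19465 entries, 24 with a date for a symbol were left out.

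Genes with a mean of at least 10 were tested within each tissue on log2(value + 1) with limma 3.58.1 (R 4.3.3; mean-variance trend, robust), Benjamini-Hochberg adjusted over all genes tested, threshold 0.05. Fold changes are on that scale, which understates low genes. Count models were run on the recovered reads as alternatives, with edgeR 4.0.16 and DESeq2 1.42.0, beside other pseudocounts, filters, scalings and weights and leaving out libraries. The fits were tested on simulated data. The members, lists and markers were chosen with earlier results of these data known. From each list, up to 4 called genes of lowest adjusted p per tissue are named with values, beside some given whether called or not; a few listed genes are not reported here. No 2 libraries of a group were alike within sampling noise (lowest chi-square per degree of freedom 8.758). The labels do not state that libraries came from different rats, and p-values cover only the library-to-library spread. Sequences are from RefSeq, GRCr8.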

Additional observations from a re-analysis of the deposited data

Results flagged for a closer look

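For 7 of the 9 genes the ozone effect differed between tissues (limma, the interaction terms tested together), as it did for 34.1% of 17361 genes. The 9 were chosen with their tissue patterns known, so nothing is read from the count. In limma the adjusted p was 2.57e-16 for Slc12a3, 8.9e-16 for Atp1b1, 6.58e-09 for Aqp3, 0.00182 for Scnn1b, 0.00695 for Aqp5, 0.00976 for Scnn1a and 0.0258 for Aqp1. All but Atp1b1 and Aqp1 were under the filter in some of the tissues that entered the test.

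A single library far from the rest of its group was found 16 times among the 76 groups checked. The rate taken for chance is about 1 in 20, but some of these counts are low and the same libraries recur. No excess over chance is therefore read from the number. Each value is a normalised read count with that of the nearest other library of the group. Several lie in libraries that stand apart in markers. In liver air 1 Aqp4 had 139 (next 22.7), and in liver ozone 19 Aqp5 had 221 (next 54.8) and Aqp1 967 (next 612). In adrenal air 8 Aqp4 had 227 (next 22.7) and Aqp5 17.9 (next 1.72). In hypothalamus air 1 Aqp5 had 79.5 (next 26.1), and in adipose air 2 Aqp4 had 161 (next 44.0).

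In muscle ozone 15 Aqp4 had 4569 (next 2178), close to the air libraries. In lung, Scnn1g had 1635 in ozone 15 (next 1039), Scnn1a had 9143 in air 9 (next 6650), and air 2 had the lowest Aqp1, 4676 (next 6192), and the highest Slc12a3, 28.1 (next 12.6). Slc12a3 also had 9.14 in liver air 9 (next 4.71) and 104 in adipose ozone 22 (next 52.9). Scnn1a had 57.4 in adipose air 9 (next 36.0), and Scnn1b had 20.4 in hypothalamus air 6 (next 14.2). Causes were not tested.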

How the results depend on the processing

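Among the 388 values of single genes of the list under other settings, 363 kept direction and side of the threshold, and 402 of the 429 that left out 1 library did. The 4 calls in lung, 2 in liver and 2 in muscle held under each setting run. In adrenal gland, with 0 calls, there was 1 call with no filter, with a mean of at least 50 and with equal library totals, 2 with DESeq2, 3 without air 8 and ozone 16 and 4 with array weights; leaving out 1 library gave 0 to 3. In hypothalamus DESeq2 gave 1 call, against 0. In adipose tissue the call of Slc12a3 was lost at a mean of at least 50 (0 calls), where it is not tested, and without the 4 libraries highest in muscle markers (0 calls); those omissions were chosen after seeing the data. Directions of values that passed no threshold also turned. With equal totals they turned for Aqp1 in muscle (-0.21), Aqp1 in adipose tissue (-0.01) and Aqp4 in hypothalamus (-0.01), and with edgeR for Aqp4 in adrenal gland (-0.77). In hypothalamus, Atp1b1 turned with TMM scaling (0.00), edgeR (0.01) and DESeq2 (0.01), and without air 1 and 3 Atp1b1 (0.03), Aqp4 (-0.04), Aqp9 (0.02) and Nedd4l (-0.20) turned. Leaving out 1 library, the log2 fold change ran from -1.79 to 0.05 for Aqp4 in adipose tissue, -0.11 to 0.38 for Slc12a3 and -0.01 to 0.12 for Scnn1b in lung, and -0.20 to 0.03 for Hsd11b2 and -0.35 to 0.03 for Nr3c1 in adrenal gland. In hypothalamus it ran from -0.08 to 0.13 for Aqp4, -0.15 to 0.00 for Aqp9, -0.07 to 0.06 for Atp1b1, -0.11 to 0.12 for Nedd4l and -0.05 to 0.14 for Slc12a3; the cause was not tested.

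The tissue test gave 7 genes, also 7 with the replicate block (library number), and 2 of the 3 testable with a mean of at least 10 in every tissue. No paired analysis was possible within tissues because ozone and air libraries share no number.

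Over all genes, array weights gave 3941 calls against 2623 in lung, 2302 against 1440 in liver, 4822 against 2609 in adrenal gland and 723 against 215 in hypothalamus; DESeq2 gave 551 in hypothalamus and 1616 against 1043 in adipose tissue. Calls fell to 98 in hypothalamus without air 1 and 3 and to 105 without ozone 16, and in adipose tissue to 609 without air 5. Without air 8 and ozone 16 adrenal gland had 4220. Equal totals moved the median log2 fold change by more than 0.1 in adrenal gland (to -0.135 from -0.002), adipose tissue (to -0.134 from 0.007) and muscle (to -0.305 from 0.016). They also moved the share of calls that were higher after ozone to 37.2% from 53.8% in lung, 29.5% from 49.6% in adrenal gland, 45.0% from 55.8% in hypothalamus, 27.4% from 52.8% in adipose tissue and 18.4% from 49.4% in muscle.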
